A study of Mus musculus with 60 samples.

Results

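Mesenchymal progenitors are the stromal cells of fat from which new adipocytes arise, and 8 genes that mark them were followed here in bulk tissue: Dpp4, Pi16, Cd55, Anxa3, Mfap5, Pdgfra, Cd34 and Ly6a. They were taken by symbol from a count table of 54352 genes, and each symbol matched 1 gene. RNA came from C57BL/6JN mice, which the sample labels give as 12-week old, and from 3 tissues of each: subcutaneous white fat (scWAT), visceral white fat (vWAT) and the triceps muscle. The groups were HFD sedentary, HFD trained, chow sedentary and chow trained, where HFD is a high-fat diet with 60% of its energy from fat, chow is the standard diet with 10%, and both were eaten freely for 6 weeks. Trained mice had a running wheel for the last 3 weeks and used it at will. All groups fasted for 6 hours before collection, and the wheels were locked for 24 hours. Each of the 20 mice gave 1 library per tissue, so that 60 libraries made up 12 groups of 5.

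In mouse fat, single-cell studies by others place these genes at different steps of one lineage. Pdgfra, the receptor for platelet-derived growth factor, is present across adipose progenitors and fibroblasts. Dpp4, Pi16, Cd55, Anxa3 and Mfap5 mark an early, fibroblast-like progenitor that lies in the fascia around the tissue and gives rise to committed preadipocytes. Cd34 and Ly6a are used to sort progenitors but are also made by endothelial cells, and Ly6a by lymphocytes too. A level in bulk tissue mixes all of these sources: fewer cells of a type and less RNA per cell cannot be told apart in any result here.

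The depth was low, and it sets what can be said. A scWAT library held 505336 to 720220 estimated counts, a vWAT library 580173 to 689060, and a triceps library 651030 to 744581. Levels are in CPM (counts per 1000000 counts of the library), and 0 counts allow up to 4.17 to 5.94 CPM in scWAT and 4.35 to 5.17 CPM in vWAT. Counting error only is covered by that limit. Summed adipocyte markers reached 32828 to 98326 CPM in scWAT and 33725 to 87360.4 CPM in vWAT, against 1849 to 6299.8 CPM in triceps. Summed muscle markers reached 230 to 98233 CPM in scWAT and 124 to 4846 CPM in vWAT, against 90311 to 192651 CPM in triceps, so that 1 scWAT library exceeded the lowest triceps library. Among the chow scWAT libraries, 6 stood apart: chow sedentary replicates 2, 4 and 5 and chow trained replicates 2, 4 and 5 held 613 to 1590 reads of B cell and lymph node stroma genes, against 6 to 39 reads in the other 14 scWAT libraries. A further pair of scWAT libraries, HFD sedentary replicate 4 and chow trained replicate 3, held 43249 and 67640 reads of muscle genes. Transcripts of organs that were not sampled were also present, with up to 3670 reads of liver genes in a vWAT library.

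Cd34 and Anxa3 rose on HFD in scWAT of sedentary mice, by 1.49 and 0.86 on the log2 scale, while no member passed the test in vWAT. For Anxa3 the depots were not shown to differ in this effect when tested against each other (0.72, adjusted p = 0.208, edgeR). Cd55 fell by 1.25 on HFD in scWAT of trained mice. scWAT held less Cd34, Anxa3, Mfap5 and Ly6a than vWAT of the same mice over the mean of the 4 groups. Pi16 ran the other way, with a higher level in scWAT than in vWAT in 18 of 20 mice. Its counts were too low to enter the main depot test. Without the 6 mice whose scWAT held lymph node transcripts, Pi16 entered the test and was not called. Running changed no member by the test in any tissue. Without the 6 libraries that held lymph node transcripts, which leaves 2 chow mice per activity, Cd34 was at 0.98 and Cd55 at -0.40, neither of them called, whereas the mean depot differences of Cd34, Anxa3, Mfap5 and Ly6a kept their calls without the 6 mice they came from.

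**Figure D1:**
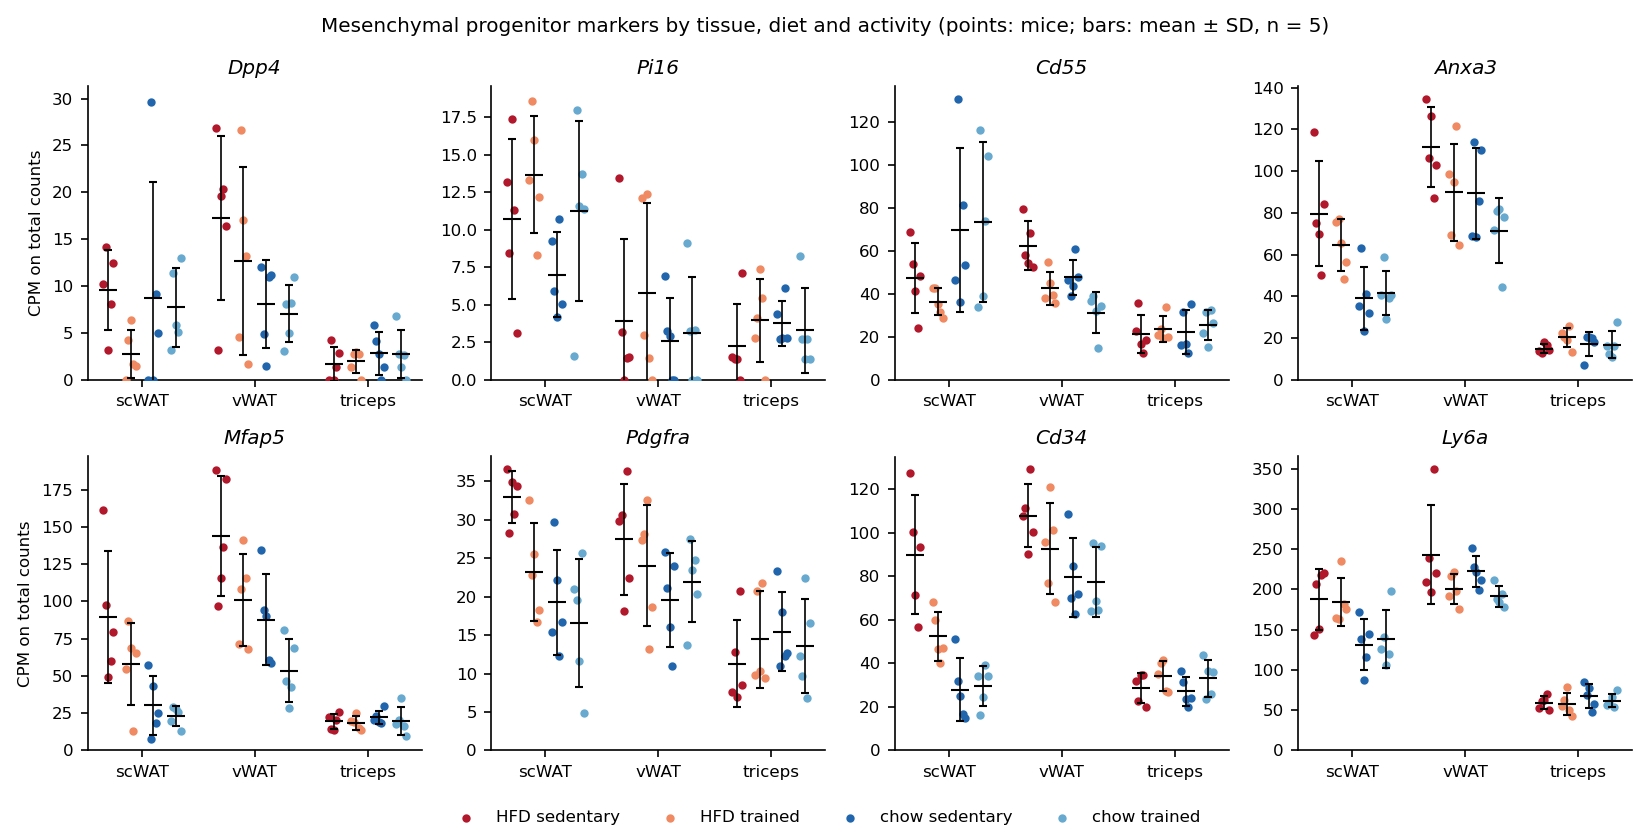
Level of each progenitor marker in CPM on total counts (vertical axes, each gene on its own scale) in scWAT, vWAT and triceps, with 1 point per mouse and bars at the mean ± SD of 5 mice. HFD groups stand left of chow groups within each tissue. Cd34 in scWAT lies at 56.6 to 127 CPM in HFD sedentary mice, above the 15.1 to 51.0 CPM of chow sedentary mice. For Cd34, Anxa3 and Mfap5 the vWAT mean lies above the scWAT mean in every group. The points of the depots overlap for these genes in HFD sedentary and HFD trained mice, and for Anxa3 and Mfap5 also in chow trained mice.

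The early progenitor genes are described first. Dpp4 encodes a cell-surface peptidase that removes dipeptides from the ends of peptides; the gene (ENSMUSG00000035000) spans chr2:62330073-62412231 on the minus strand of mm10, as annotated in GENCODE vM21. It was close to the detection limit, with 0 to 15 counts per scWAT library and 1 to 18 per vWAT library. In scWAT, Dpp4 levels averaged 9.63 ± 4.27 CPM in HFD sedentary, 2.78 ± 2.54 CPM in HFD trained, 8.78 ± 12.3 CPM in chow sedentary and 7.72 ± 4.24 CPM in chow trained mice (SD, n = 5 each). Its scWAT counts were too low to enter the test, and the chow sedentary mean rests on replicate 2, which stood at 29.7 CPM with 15 counts. Lymphocytes make Dpp4 too, and on chow it stood at 5.03 to 29.7 CPM in the 6 scWAT libraries with lymph node transcripts and at 0 to 5.81 CPM in the other 4. In vWAT, Dpp4 averaged 17.3 ± 8.73 CPM in HFD sedentary, 12.6 ± 10.0 CPM in HFD trained, 8.10 ± 4.68 CPM in chow sedentary and 7.07 ± 3.07 CPM in chow trained mice (SD, n = 5 each). The vWAT groups overlapped, since the lowest HFD sedentary mouse stood at 3.23 CPM and the highest chow sedentary mouse at 12.1 CPM.

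Pi16, a secreted protein named as a peptidase inhibitor (ENSMUSG00000024011, chr17:29317680-29330593, plus strand), marks the early progenitor in fat and fibroblasts of several organs. It had 1 to 13 counts in every scWAT library and 0 to 9 in vWAT, where 6 of 20 libraries had none. Pi16 stood at 13.2, 8.49, 17.4, 11.3 and 3.12 CPM in HFD sedentary scWAT and at 13.3, 18.6, 16.0, 8.35 and 12.2 CPM in HFD trained scWAT. In chow scWAT it stood at 9.27, 5.94, 4.17, 10.7 and 5.03 CPM in sedentary and 1.62, 18.0, 11.6, 13.7 and 11.4 CPM in trained mice. The diets overlapped within each activity. In vWAT the median was 1.495 CPM in HFD sedentary, 2.96 CPM in HFD trained, 2.92 CPM in chow sedentary and 3.24 CPM in chow trained mice. Pi16 was thus detected in 14 of 20 vWAT libraries, with a median of 2 counts over all 20.

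Cd55, the complement decay-accelerating factor that shields cells from complement (ENSMUSG00000026399, chr1:130439027-130462744, minus strand), was detected in all 60 libraries. In scWAT of trained mice Cd55 stood at 42.9, 42.9, 35.2, 31.7 and 28.9 CPM on HFD, against 34.0, 116, 39.2, 73.7 and 104 CPM on chow. In sedentary mice it stood at 68.9, 53.8, 41.2, 24.3 and 48.4 CPM on HFD, against 46.3, 131, 36.1, 81.0 and 53.6 CPM on chow. The chow values above 50 CPM were those of the libraries with lymph node transcripts, while HFD sedentary replicates 1 and 2, at 68.9 and 53.8 CPM, held 24 and 32 reads of those genes. In vWAT the Cd55 means were 62.4 ± 11.2 CPM in HFD sedentary, 42.6 ± 7.63 CPM in HFD trained, 47.6 ± 8.13 CPM in chow sedentary and 31.3 ± 9.56 CPM in chow trained mice (SD, n = 5 each).

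Anxa3, an annexin that binds phospholipids in the presence of calcium (ENSMUSG00000029484, chr5:96793339-96845966, plus strand), stood at 119, 75.0, 69.7, 50.1 and 84.2 CPM in HFD sedentary scWAT, against 35.5, 63.3, 23.6, 41.3 and 31.8 CPM in chow sedentary scWAT. In this pair only the lowest HFD mouse lay below the highest chow mouse. In vWAT of sedentary mice it stood at 134, 106, 126, 87.1 and 103 CPM on HFD, against 68.9, 114, 68.6, 85.8 and 110.0 CPM on chow, which overlapped.

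Mfap5, a glycoprotein of the microfibrils of the matrix (ENSMUSG00000030116, chr6:122505845-122529290, plus strand), stood at 161, 97.6, 49.1, 59.8 and 79.5 CPM in HFD sedentary scWAT, against 57.1, 7.92, 43.0, 18.3 and 25.1 CPM in chow sedentary scWAT. In trained mice it stood at 54.8, 87.2, 68.8, 13.4 and 65.5 CPM on HFD, against 19.4, 29.4, 27.6, 25.7 and 13.0 CPM on chow. Apart from HFD trained replicate 4, every HFD trained mouse lay above every chow trained mouse. In vWAT the Mfap5 means were 144 ± 40.3 CPM in HFD sedentary, 101 ± 31.1 CPM in HFD trained, 87.9 ± 30.8 CPM in chow sedentary and 53.5 ± 21.0 CPM in chow trained mice (SD, n = 5 each).

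Pdgfra, the receptor that marks the whole lineage (ENSMUSG00000029231, chr5:75152292-75198215, plus strand), averaged 33.0 ± 3.38 CPM in HFD sedentary, 23.2 ± 6.32 CPM in HFD trained, 19.3 ± 6.85 CPM in chow sedentary and 16.6 ± 8.28 CPM in chow trained scWAT (SD, n = 5 each). In vWAT its means were 27.5 ± 7.20, 24.0 ± 7.85, 19.6 ± 6.08 and 21.9 ± 5.27 CPM in the same 4 groups. It had 3 to 25 counts per fat library, and within each activity the diets overlapped in both depots.

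Cd34, a sialomucin of progenitors and endothelium (ENSMUSG00000016494, chr1:194938819-194961279, plus strand), stood at 127, 100.4, 71.3, 56.6 and 93.6 CPM in HFD sedentary scWAT, against 51.0, 31.7, 25.0, 16.8 and 15.1 CPM in chow sedentary scWAT. In trained mice it stood at 68.1, 60.0, 46.4, 40.1 and 47.2 CPM on HFD, against 34.0, 16.3, 24.7, 39.4 and 34.1 CPM on chow. In both activities every HFD mouse lay above every chow mouse. In vWAT of sedentary mice Cd34 stood at 108, 111, 90.3, 129 and 100.2 CPM on HFD, against 109, 70.0, 84.7, 62.4 and 71.7 CPM on chow, and 1 chow mouse lay among the HFD mice.

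Ly6a, which encodes the GPI-anchored surface protein Sca-1 (ENSMUSG00000075602, chr15:74994877-74998031, minus strand), averaged 188 ± 37.6 CPM in HFD sedentary, 184 ± 29.7 CPM in HFD trained, 132 ± 31.5 CPM in chow sedentary and 138 ± 35.8 CPM in chow trained scWAT (SD, n = 5 each). In vWAT its means were 243 ± 61.6, 201 ± 19.0, 223 ± 19.4 and 191 ± 13.0 CPM in the same 4 groups. Ly6a belongs to a family of similar neighbouring genes among which estimated counts can be split, so its values are uncertain. Ly6c2 averaged 42.1 CPM in the 6 chow scWAT libraries with lymph node transcripts, against 1.87 CPM in the other 4 chow libraries. The 10 HFD scWAT libraries averaged 4.77 CPM of Ly6c2 and reached 19.4 CPM. The similar gene Cd55b had 1 count in all 60 libraries.

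The start regions of Cd34, Pi16 and Cd55 are shown. Cd34 had the largest diet difference among the tested members in sedentary scWAT, and Pi16 ran opposite to Cd34 between depots. Cd55 was the member called lower on HFD. That call was in trained scWAT only and was lost without the 6 libraries with lymph node transcripts. Promoter entries were matched for 5 of the 8 members in the RefSeq table of GRCm38.p6, where Anxa3, Mfap5 and Ly6a had no entry. Each runs from 250 bases before to 50 bases after the RefSeq start, in the gene's own direction, at chr1:194938571-194938870 (Cd34, plus strand), chr17:29318632-29318931 (Pi16, plus strand) and chr1:130462695-130462994 (Cd55, minus strand). The Pi16 region lies wholly downstream of the gene start at chr17:29317680 in GENCODE vM21, so it does not cover the bases before that start. Capitals mark matches to motifs searched on both strands.
Cd34: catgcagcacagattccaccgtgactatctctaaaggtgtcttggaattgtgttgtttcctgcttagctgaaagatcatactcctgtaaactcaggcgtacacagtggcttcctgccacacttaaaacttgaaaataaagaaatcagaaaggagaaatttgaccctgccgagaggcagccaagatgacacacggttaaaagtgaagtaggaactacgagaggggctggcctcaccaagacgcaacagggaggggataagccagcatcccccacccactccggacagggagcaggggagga
Pi16: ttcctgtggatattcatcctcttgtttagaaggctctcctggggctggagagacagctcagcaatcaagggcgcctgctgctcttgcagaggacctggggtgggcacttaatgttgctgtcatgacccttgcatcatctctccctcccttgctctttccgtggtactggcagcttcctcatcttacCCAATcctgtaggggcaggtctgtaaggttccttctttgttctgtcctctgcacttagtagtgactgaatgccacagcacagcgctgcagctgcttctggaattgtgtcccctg
Cd55: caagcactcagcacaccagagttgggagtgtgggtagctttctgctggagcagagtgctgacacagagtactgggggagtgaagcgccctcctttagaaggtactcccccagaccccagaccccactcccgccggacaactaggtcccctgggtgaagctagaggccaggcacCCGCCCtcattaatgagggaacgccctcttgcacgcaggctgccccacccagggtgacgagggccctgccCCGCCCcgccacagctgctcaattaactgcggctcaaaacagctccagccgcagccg
The motifs were TATAAA (the TATA box), CCAAT (the CCAAT box), GGGCGG (the GC box bound by Sp1), TGANTCA (the core bound by AP-1) and GGAATG (the core bound by TEAD factors), and no match overlapped another in these regions. The Cd34 region held none of them. The Pi16 region held CCAAT at position -64, a motif present in 37.4% of 32544 RefSeq promoters of this length. The Cd55 region held GGGCGG on the opposite strand at positions -77 and -7, a motif present in 35.9% of those promoters. TATAAA was present in 13.6%, TGANTCA in 7.79% and GGAATG in 14.6% of them. GC content was 50% for Cd34, 53.3% for Pi16 and 63.3% for Cd55, against a median of 53% for all promoters in the table. A match is a string of letters and was not tested for binding.

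The diet comparison asked what HFD did within each depot and activity. All differences are log2 fold changes on the TMM scale (library totals corrected for composition), from edgeR's quasi-likelihood test, and a gene was called at a Benjamini-Hochberg adjusted p under 0.05 over all genes tested in that comparison. In scWAT, 6 of the 8 members had enough counts to be tested, without Dpp4 and Pi16, and in vWAT 7, without Pi16. In scWAT of sedentary mice 2 of 6 tested members rose on HFD and none fell, where 6.35% of all 7069 tested genes were called and 3.55% were called higher. Cd34 rose by 1.49 (SE 0.28, adjusted p = 0.00166, edgeR). Anxa3 rose by 0.86 (SE 0.23, adjusted p = 0.0227, edgeR). Mfap5 differed by 1.31 (SE 0.46, adjusted p = 0.103), Pdgfra by 0.60 (SE 0.29, adjusted p = 0.238), Ly6a by 0.34 (SE 0.18, adjusted p = 0.293) and Cd55 by -0.70 (SE 0.31, adjusted p = 0.196), none of which passed in edgeR; Mfap5 passed in DESeq2 (1.34, adjusted p = 0.0438) and on total counts (1.54, adjusted p = 0.033). The median over the tested members was 0.73, beside -0.05 over all tested genes.

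In scWAT of trained mice 1 of 6 tested members was called, beside 5.16% of all tested genes. Cd55 fell by 1.25 on HFD (SE 0.32, adjusted p = 0.0251, edgeR), and did not pass on total counts (adjusted p = 0.0731). Cd34 differed by 0.56 (SE 0.28, adjusted p = 0.26) and Anxa3 by 0.38 (SE 0.23, adjusted p = 0.362), without passing in edgeR. The Cd34 levels of the diets did not overlap in CPM on total counts, a scale on which the HFD difference of all genes is higher by 0.27 than on the TMM scale; on total counts Cd34 differed by 0.82 (adjusted p = 0.0653, edgeR). Mfap5 differed by 1.05 (SE 0.49, adjusted p = 0.225), Pdgfra by 0.23 and Ly6a by 0.16. The contrasts in sedentary and trained mice were not tested against each other.

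**Figure D2:**
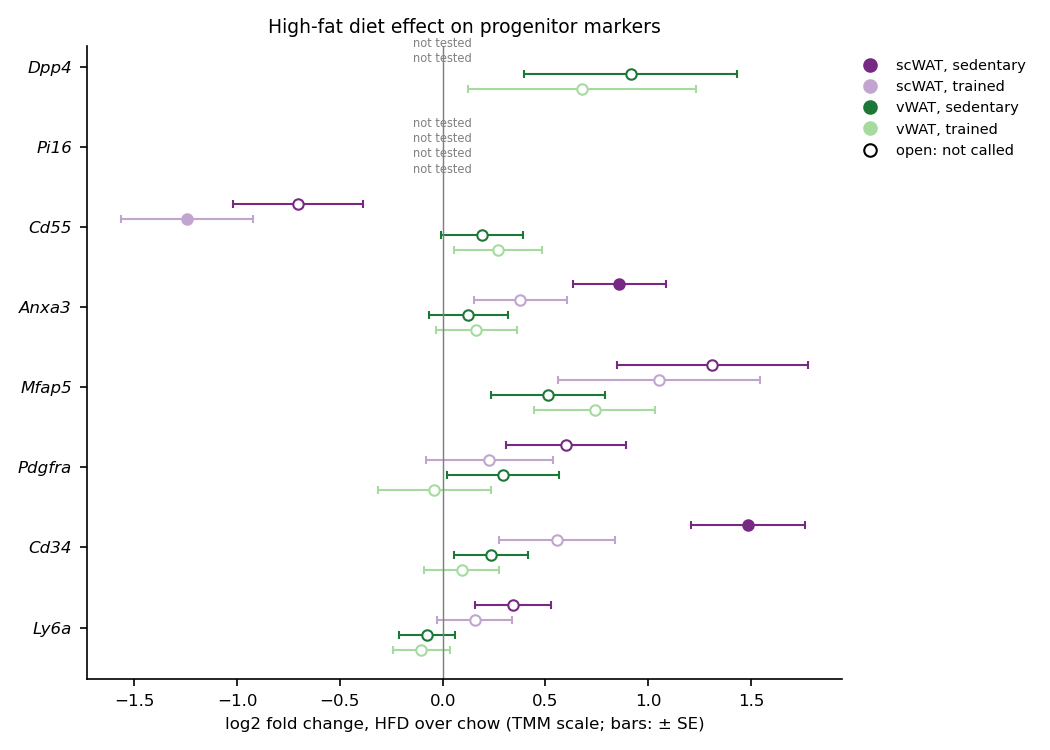
Log2 fold change of HFD over chow (horizontal axis, TMM scale, bars ± SE) for each member (vertical axis) in sedentary and trained mice of each fat depot, with filled points for adjusted p under 0.05 and 5 mice per group. Cd34 at 1.49 and Anxa3 at 0.86 in sedentary scWAT and Cd55 at -1.25 in trained scWAT are the filled points, and all vWAT points are open.

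In vWAT 0 of 7 tested members were called on HFD in either activity, where 8.07% of 6990 tested genes were called in sedentary and 2.62% in trained mice. DESeq2 also called 0, and 0 members in sedentary and 1 in trained mice had an unadjusted p under 0.05. In sedentary mice Dpp4 differed by 0.91 (SE 0.52, adjusted p = 0.349), Mfap5 by 0.51 (SE 0.28, adjusted p = 0.331) and Cd34 by 0.24 (SE 0.18, adjusted p = 0.531). The member with the unadjusted p under 0.05 was Mfap5 in trained mice, at 0.74 (SE 0.29, adjusted p = 0.25), which passed when low counts were not filtered (0.72, adjusted p = 0.0289). The test of the depots against each other, in the joint fit with the mouse as a block, called 1 of 7 members in sedentary mice, where 1.61% of 7931 tested genes were called. The HFD difference of Cd34 was greater in scWAT than in vWAT by 1.29 (SE 0.31, adjusted p = 0.0246, edgeR). For Anxa3 the same test gave 0.72 (SE 0.27, adjusted p = 0.208, edgeR), which was not called. This test of a difference between differences has less power than the contrasts within a depot, so a member that misses it is not shown to respond alike in the depots. In trained mice 0 of 7 passed this test, where 0.542% of genes were called; 2 members had an unadjusted p under 0.05 and DESeq2 called 0. Cd55 came nearest in trained mice at -1.43 (SE 0.36, adjusted p = 0.0675, edgeR), and passed when low counts were not filtered (-1.45, adjusted p = 0.00272).

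These diet calls in scWAT moved with the 6 chow libraries that held lymph node transcripts. Cd55 stood at 24.3 to 68.9 CPM (median 42.0) in the 10 HFD libraries, against 53.6 to 131 CPM (median 92.5) in the 6 chow libraries with those transcripts and 34.0 to 46.3 CPM (median 37.7) in the other 4 chow libraries. Without the 6 libraries, the Cd55 difference in trained mice was -0.40 (adjusted p = 0.613, edgeR), where 1.92% of genes were called. Cd34 stood at 40.1 to 127 CPM (median 64.0) on HFD, against 15.1 to 39.4 CPM (median 24.2) in the 6 chow libraries and 24.7 to 51.0 CPM (median 29.5) in the other 4. Without them, the Cd34 difference in sedentary mice was 0.98 (adjusted p = 0.107), and the difference of Cd34 between depots was 1.10 (adjusted p = 0.561) without the 6 mice, where 0.0345% of genes were called. The Anxa3 difference was 1.16 (adjusted p = 0.0493) and kept its call. These fits hold 2 chow mice per activity in scWAT, and they were chosen after seeing the data.

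**Figure D3:**
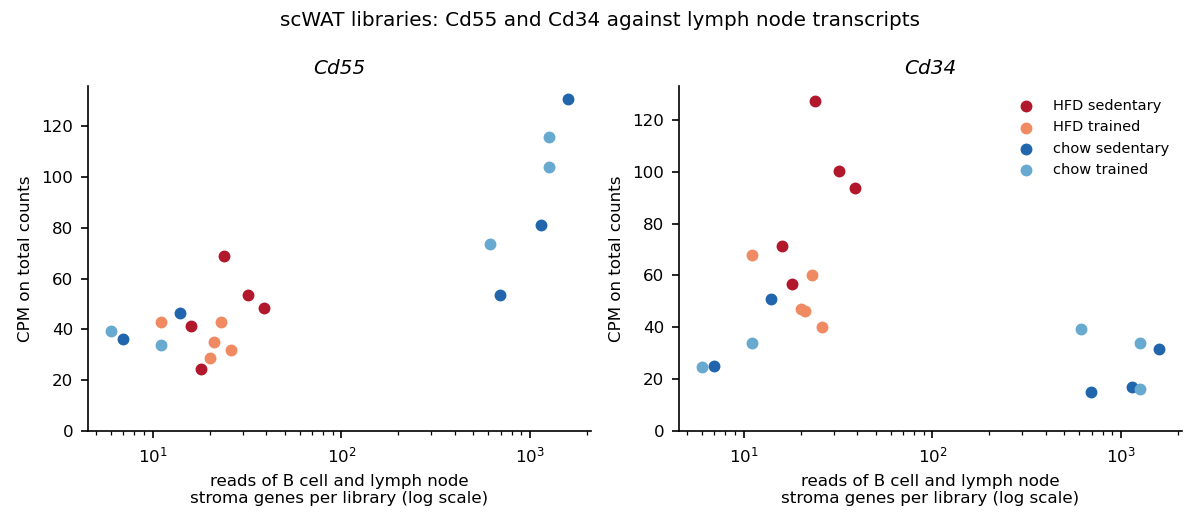
Level of Cd55 (left) and Cd34 (right) in CPM on total counts, against the reads of B cell and lymph node stroma genes in each of the 20 scWAT libraries (log scale), coloured by group. The 6 libraries with 613 to 1590 reads are all chow and hold Cd55 at 53.6 to 131 CPM, and Cd34 at 15.1 to 39.4 CPM, where the other 4 chow libraries hold Cd34 at 24.7 to 51.0 CPM.

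Leaving out single libraries gave the following. Cd34 in sedentary scWAT kept its call in all 20 fits, at 1.33 to 1.84. Anxa3 lost its call without HFD sedentary replicate 1 (0.68, adjusted p = 0.0862) and without chow sedentary replicate 5 (0.79, adjusted p = 0.0638). Cd55 in trained scWAT lost its call without chow trained replicate 2 (-1.03, adjusted p = 0.0768) or replicate 5 (-1.13, adjusted p = 0.069), and without HFD trained replicates 3, 4 or 5 (-1.23, -1.20 and -1.16). The depot difference of Cd34 lost its call without HFD sedentary replicates 1, 2 or 5 and without chow sedentary replicates 2, 4 or 5, at 1.14 to 1.35 and adjusted p of 0.052 to 0.0931. Without the pair of scWAT libraries rich in muscle transcripts, Cd34 at 1.58, Anxa3 at 0.96 and Cd55 at -1.36 kept their calls. Library codes in the column headers were taken in runs of 12, the number of wells that the protocol pools, with the first code of each run inferred; these runs are called library blocks here. The protocol also mentions subpools of 15 samples, and the labels give no pool for a library, so the members of each block are an assumption. In the scWAT block of 9 libraries the sedentary HFD difference was 1.44 for Cd34 (adjusted p = 0.163) and 1.09 for Anxa3 (adjusted p = 0.303). In the block of 11 it was 2.04 for Cd34 (adjusted p = 0.00114) and 0.73 for Anxa3 (adjusted p = 0.144), and that of Cd55 in trained mice was -1.42 (adjusted p = 0.0135), against -0.99 (adjusted p = 0.747) in the block of 9. Over all genes, 0 of 7560 were called on HFD in the block of 9 in either activity. In the block of 11, 267 of 7625 were called in sedentary and 235 in trained mice. In vWAT 1 block of 12 holds both diets, and within it 0 members were called in either activity. There 87 of 7707 genes were called in sedentary and 143 in trained mice.

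Other genes of the early progenitor, of its committed progeny and of neighbouring cell types show the setting of these changes. Of 12 other genes known from Dpp4-marked progenitors, 5 were tested in scWAT; 4 rose on HFD in sedentary mice and none fell, with a median of 1.25. Pcolce2, an enhancer of procollagen processing, rose by 2.82 (SE 0.47, adjusted p = 0.000724), with 61.0 ± 33.2 CPM in HFD sedentary and 7.08 ± 5.90 CPM in chow sedentary mice (SD, n = 5 each). Igfbp6, which binds insulin-like growth factors, rose by 1.47, and Sema3c, a secreted semaphorin, by 1.25. In trained mice 1 of 5 rose, Igfbp6 at 1.40 (SE 0.33, adjusted p = 0.0149, edgeR). Of 13 genes of committed preadipocytes and F3-marked stroma, 1 of 8 tested rose in each activity: Mgp, an inhibitor of calcification, by 1.39 in sedentary and 1.55 in trained mice.

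General fibroblast genes moved alongside. In scWAT of sedentary mice 6 of 17 tested rose on HFD and none fell, with a median of 0.78. Fstl1, a secreted glycoprotein, rose by 1.09, and Dpt, the matrix protein dermatopontin, by 0.98 (604 ± 186 CPM in HFD sedentary and 266 ± 86.7 CPM in chow sedentary mice, SD, n = 5 each). Of 11 tested endothelial genes 2 rose, Esam by 0.68 and Emcn by 0.74. Summed endothelial genes stood at 505 to 962 CPM in HFD sedentary scWAT, against 367 to 649 CPM in chow sedentary scWAT. Mural cell genes rose in 4 of 7 tested and macrophage genes in 2 of 9. B cell and lymph node stroma genes fell in 6 of 10 tested, with a median of -4.78. T and NK cell genes fell in 1 of 8 tested, and summed to 20.5 to 87.3 CPM in HFD sedentary scWAT, against 22.2 to 1308 CPM in chow sedentary scWAT. Adipocyte genes rose in 2 of 12 tested and fell in 1, and summed to 43497 to 98326 CPM in HFD sedentary scWAT, against 35688 to 60141 CPM in chow sedentary scWAT. Without the 6 libraries, 0 of 7 tested early progenitor genes, 0 of 16 fibroblast genes, 0 of 12 endothelial genes and 0 of 8 mural genes were called in sedentary mice, with medians of 1.00, 0.40, 0.00 and 0.47. In that fit 1.79% of 7759 tested genes were called and 0.58% were called higher, so counts of 0 in lists of this size are near the share over all genes. How far each cell type takes part in the Cd34 and Anxa3 differences was not tested.

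In vWAT of sedentary mice, among the early progenitor genes 1 of 5 tested rose on HFD: Pcolce2, by 2.36 (SE 0.26, adjusted p = 5.13e-07, edgeR), with 117 ± 30.3 CPM in HFD sedentary and 19.6 ± 6.23 CPM in chow sedentary mice (SD, n = 5 each). General fibroblast genes rose in 7 of 16 tested, among them Col6a1, a chain of collagen VI, by 1.11. Macrophage genes rose in 6 of 9, and endothelial genes in 0 of 12. Of all 6990 genes tested in this comparison, 564 were called, 274 of them higher.

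The running comparison asked whether wheel running shifted the same genes. It called 0 of 6 tested members in scWAT, 0 of 7 in vWAT and 0 of 6 in triceps, on either diet, by edgeR and by DESeq2. The share of all tested genes called was 1% on HFD and 0% on chow in scWAT, while vWAT had 3.09% on HFD and 0.587% on chow, and triceps 5.35% on HFD and 0.748% on chow. An unadjusted p under 0.05 was reached by 1 member on HFD and 0 on chow in scWAT, by 1 on HFD and 2 on chow in vWAT, and by 1 on HFD and 0 on chow in triceps. In scWAT on HFD that member was Cd34, which stood at 40.1 to 68.1 CPM in trained and 56.6 to 127 CPM in sedentary mice, a difference of -0.73 (SE 0.26, adjusted p = 0.252, edgeR). In vWAT, Cd55 differed by -0.49 on HFD (SE 0.20, adjusted p = 0.205) and -0.57 on chow (SE 0.21, adjusted p = 0.362), and Mfap5 by -0.67 on chow (SE 0.30, adjusted p = 0.534), in edgeR. Anxa3 in triceps on HFD differed by 0.61 (SE 0.27, adjusted p = 0.196, edgeR). Among the other progenitor genes Pcolce2 fell by 1.28 with running in vWAT on HFD (SE 0.23, adjusted p = 0.00146, edgeR), at 46.3 ± 20.2 CPM in HFD trained and 117 ± 30.3 CPM in HFD sedentary mice (SD, n = 5 each). In the same comparison 6 of 16 tested fibroblast genes fell and 1 rose.

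The depot comparison set scWAT against vWAT of the same mouse, in a joint fit of 40 libraries with the mouse as a block. Over the mean of the 4 groups, 4 of 7 tested members were lower in scWAT and none was higher, where 27.5% of all tested genes were called and 14.2% were called lower. The scWAT and vWAT libraries lie in different library blocks, so depot and block cannot be told apart. Mfap5 differed by -1.004 (SE 0.20, adjusted p = 0.000954, edgeR), Cd34 by -0.94 (SE 0.11, adjusted p = 8.27e-08) and Anxa3 by -0.67 (SE 0.10, adjusted p = 2.49e-06). Each of these 3 genes had a lower level in scWAT than in vWAT in 19 of 20 mice. Ly6a differed by -0.37 (SE 0.07, adjusted p = 0.000114, edgeR), in 16 of 20 mice. The other tested members did not pass: Dpp4 differed by -0.68 (SE 0.31, adjusted p = 0.103), Cd55 by 0.30 (SE 0.13, adjusted p = 0.071) and Pdgfra by 0.02 (SE 0.14, adjusted p = 0.938), and Pdgfra was lower in scWAT in 10 mice and higher in 10.

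Pi16 entered the depot test only when the filter on low counts was dropped. It was then higher in scWAT by 1.58 (SE 0.27, adjusted p = 1.405e-07, edgeR), in a fit where 8.72% of 26492 genes were called and 4.23% were called higher. Its level was higher in scWAT than in vWAT in 18 of 20 mice, averaging 10.7 ± 4.94 CPM in scWAT and 3.87 ± 4.48 CPM in vWAT (SD, n = 20 each). Without the 6 mice, where Pi16 passed the filter, the difference was 1.07 (adjusted p = 0.144). Few counts carry these values, with a median of 7 per library in scWAT and 2 in vWAT.

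**Figure D4:**
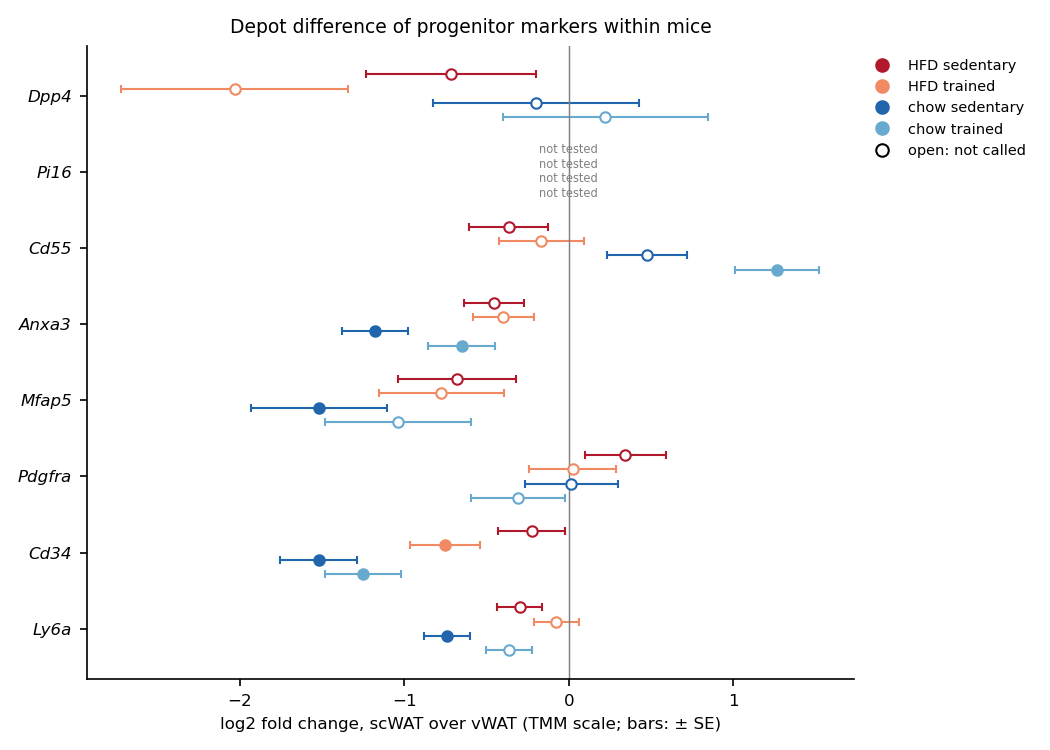
Log2 fold change of scWAT over vWAT within mice (horizontal axis, TMM scale, bars ± SE) for each member (vertical axis) by diet and activity, with filled points for adjusted p under 0.05 and 5 mice per group. Cd34 runs from -0.23 in HFD sedentary to -1.52 in chow sedentary mice, and Cd55 stands at 1.27 in chow trained mice.

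By group the depot differences were uneven. In HFD sedentary mice 0 of 7 members were called, where 5.51% of genes were; DESeq2 also called 0, and 2 had an unadjusted p under 0.05. Cd34 there differed by -0.23 (SE 0.20, adjusted p = 0.606, edgeR). In HFD trained mice 1 member was called beside 6.34% of genes, Cd34 at -0.75 (SE 0.21, adjusted p = 0.0297, edgeR), a call lost without HFD trained replicate 3 (-0.61, adjusted p = 0.172) or replicate 4 (-0.61, adjusted p = 0.155) and in DESeq2 (-0.77, adjusted p = 0.0564). In chow sedentary mice 4 members were lower in scWAT beside 12.1% of genes called in either direction and 6.73% called lower. They were Cd34 at -1.52, Mfap5 at -1.52, Anxa3 at -1.18 and Ly6a at -0.74, of which Mfap5 lost its call without chow sedentary replicate 2 (-1.20, adjusted p = 0.0854) or replicate 4 (-1.51, adjusted p = 0.0641). In chow trained mice Cd34 at -1.25 and Anxa3 at -0.65 were lower and Cd55 at 1.27 was higher in scWAT, beside 10.7% of genes called. Anxa3 there lost its call without chow trained replicates 1, 2, 3 or 5, at -0.73 to -0.52, and in DESeq2 (-0.64, adjusted p = 0.109).

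Without the 6 mice whose scWAT held lymph node transcripts, the mean depot differences were -0.85 for Mfap5 (adjusted p = 0.049), -0.81 for Cd34 (adjusted p = 4.06e-05), -0.73 for Anxa3 (adjusted p = 0.00013) and -0.44 for Ly6a (adjusted p = 0.000523), all called, where 21.2% of 8706 tested genes were called and 11.1% were called lower. Dpp4 then passed as well, at -1.90 (adjusted p = 0.0177, edgeR). In that fit the 2 chow sedentary scWAT libraries left held 0 counts of Dpp4, so the size of its difference is not well determined. Cd55 was at -0.06 (adjusted p = 0.812) over the mean of the groups and at 0.34 (adjusted p = 0.692) in chow trained mice. In chow sedentary mice Cd34 was at -1.32, Anxa3 at -1.16 and Ly6a at -0.86, all called, and Mfap5 at -1.08 (adjusted p = 0.456), where 2 mice were left per chow group and 2.75% of genes were called. In chow trained mice neither Cd34 (-0.94, adjusted p = 0.135) nor Anxa3 (-0.91, adjusted p = 0.126) passed without them, where 2.79% of genes were called.

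The same comparison over the other lists gave mixed directions. Of all 7931 tested genes, 1123 were called lower and 1057 higher in scWAT. Early progenitor genes were lower in scWAT in 4 of 6 tested, among them Igfbp6 at -1.57 (SE 0.16, adjusted p = 1.38e-07, edgeR) and Fbn1, which encodes the microfibril protein fibrillin, at -0.96. Committed and F3-marked stromal genes were lower in 3 of 9: Mgp at -2.57, Gdf10, a ligand of the TGF-beta family, at -1.72 and Fmo2, a monooxygenase, at -1.45. General fibroblast genes were higher in 8 of 17 and lower in 3, with Dpt at 1.04 and the proteoglycan Dcn at -1.01. Endothelial genes were lower in 5 of 12 and macrophage genes in 6 of 9, while muscle genes were higher in 11 of 13. Both tested mesothelial genes were lower, and their list summed to 0 to 8.09 CPM in scWAT against 2.92 to 187 CPM in vWAT. The part of these cell types in the members' differences was not tested.

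Triceps served as a contrast tissue. On total counts each member had a lower mean level in triceps than in either fat depot. Pi16 was not tested and was near the detection limit in vWAT and triceps. It averaged 3.87 ± 4.48 CPM in vWAT and 3.33 ± 2.42 CPM in triceps (SD, n = 20 each), with a median of 2 counts in each. Anxa3 averaged 56.2 ± 23.0 CPM in scWAT and 90.6 ± 23.5 CPM in vWAT, against 17.4 ± 5.01 CPM in triceps (SD, n = 20 each). Cd34 averaged 50.0 ± 30.1 CPM in scWAT and 89.2 ± 20.3 CPM in vWAT, against 30.8 ± 7.33 CPM in triceps (SD, n = 20 each). On the TMM scale vWAT exceeded triceps in 5 of 7 tested members, beside 80% of 8501 genes called and 46.7% called higher, with Anxa3 at 1.27 (SE 0.11, adjusted p = 4.93e-15, edgeR), Mfap5 at 1.09, Dpp4 at 1.07, Ly6a at 0.71 and Cd34 at 0.44. scWAT exceeded triceps in Anxa3 at 0.62 and Ly6a at 0.35 and was lower in Cd34 at -0.48, beside 79.8% of genes called. These directions depend on the scale, because the median over all genes moved by 1.01 for scWAT and 1.10 for vWAT between total counts and TMM. On total counts the scWAT difference of Cd34 was 0.54, and all 7 tested members were called higher in scWAT than in triceps, where 89.5% of all genes were called and 76.7% were called higher, so this count says nothing particular of the members. HFD changed no tested member within triceps in edgeR or DESeq2, with 0 at an unadjusted p under 0.05 in either activity, and 0% of 4410 tested genes were called.

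Within groups the members varied together only in part. With group means subtracted, 15 pairs of members in scWAT had Pearson correlations of -0.47 to 0.78 with a median of -0.03, over 20 libraries that share depth and composition. The highest was Cd55 with Anxa3, a pair that stood at 0.36 in vWAT. On chow both genes averaged higher in the 6 scWAT libraries with lymph node transcripts than in the other 4. Cd55 averaged 93.1 against 38.9 CPM, and Anxa3 45.9 against 32.2 CPM. The part of those libraries in this correlation was not tested. In vWAT 21 pairs ran from -0.29 to 0.50, with a median of 0.23. The genes most like the members by mean Pearson correlation were Procr (0.38), Eef1akmt2, F11r, Serping1, Wdr20 and Myl9 in scWAT and Vcan (0.45), Alas2, Dnajb4, Hbb-bs, Hba-a2 and Dnajc8 in vWAT, of which Alas2, Hbb-bs and Hba-a2 are genes of red blood cells. By Spearman correlation 3 of the 6 genes stayed in each depot.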

How the data were processed

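Bulk 3′ digital gene expression was measured in 60 libraries of 20 mice. Per the labels' protocols, cDNA from 12 wells was pooled before tagmentation. The submitters' processing notes name Salmon 0.14.2 and mm10; strandedness was not given in the sources used here, nor was any removal of PCR copies. The authors deposited estimated counts that are whole numbers and, per the file headers, a log2 CPM column per library, which served only to check the unit.

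Counts were rounded (no value changed) and tested with edgeR 4.0.16 in R 4.3.3: TMM, filterByExpr by group, robust quasi-likelihood fit, two-sided, Benjamini-Hochberg over all genes tested. Each tissue was fitted on its 20 libraries, the depots jointly on 40 libraries and all tissues on 60, both with the mouse as a block. Mice were paired across tissues by the animal code in the titles. Replicates are separate mice. Standard errors come from the fold change and its statistic. A call is an adjusted p under 0.05. The test was checked on simulated counts with known changes: direction, size and the share of false calls were recovered in each comparison simulated. For the depot difference in the HFD effect, fewer of the changed genes were called than the check first asked, and that part of the check was dropped after its result was seen. DESeq2 1.42.0 was an alternative, as were total counts, no filter, blocks, and 1 library or mouse left out; fits without the 6 lymph node libraries or their mice, without the muscle-rich libraries and within library blocks were added after seeing the data.

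All 8 members were followed, but members that were not called are not all named in every comparison. Up to 4 genes per list were named by lowest p, and 6 like-pattern genes per depot. Members and lists were chosen with earlier results of these data known. Positions are from GENCODE vM21.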

Additional observations from a re-analysis of the deposited data

Results flagged for a closer look

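In each of 96 groups of 5 libraries (8 members, 12 groups), the gap of the extreme library to its neighbour was compared with the group's range; 8 groups stood out, and chance gives about 1 in 20. Pi16 was high in vWAT of HFD sedentary replicate 1, at 13.4 CPM, against 0 to 3.23 CPM in the other 4. It was also high in triceps of HFD sedentary replicate 5, at 7.10 CPM, against 0 to 1.52 CPM, and of chow trained replicate 1, at 8.23 CPM, against 1.38 to 2.75 CPM. Cd55 was high in triceps of HFD trained replicate 4, at 34.1 CPM, against 19.2 to 23.5 CPM. Anxa3 was low in vWAT of chow trained replicate 4, at 44.5 CPM, against 71.7 to 82.0 CPM, and in triceps of chow sedentary replicate 1, at 7.29 CPM, against 18.3 to 20.8 CPM. Ly6a was high in scWAT of HFD trained replicate 3, at 235 CPM, against 163 to 182 CPM, and in vWAT of HFD sedentary replicate 4, at 349.8 CPM, against 197 to 239 CPM. The HFD difference of Cd34 in sedentary mice was greater in scWAT than in vWAT by 1.29 on the log2 scale, which passed edgeR's test of the difference itself.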

How the results depend on the processing

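Depth limits Dpp4 and Pi16 most, at 0 to 18 and 0 to 13 counts per fat library; a difference in them is often not detectable at this depth. Other scalings, filters, tools and blocks kept direction and side of the threshold in 524 values; 15 gained a call, 15 lost one and 27 changed sign. Leaving out 1 library or mouse kept both in 1969 values, with 24 gaining a call, 21 losing one and 26 changing sign. For changes not explained by fewer genes or libraries, the cause was not tested.

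The number of members called on HFD in sedentary scWAT was 2. It became 0 within the block of 9 libraries, where 0 of 7560 tested genes were called. It was 1 within the block of 11 (267 of 7625 genes called). Without the 6 libraries with lymph node transcripts it was also 1 (139 of 7759 genes). In trained scWAT the number was 1. It became 0 on total counts (822 of 7069 genes), 0 within the block of 9 (0 of 7560) and 0 without the 6 libraries (149 of 7759). In trained vWAT the number was 0, and became 1 without a filter on low counts (243 of 23884 genes). Between depots, 0 members in HFD sedentary mice became 1 without the filter (775 of 26492 genes). In HFD trained mice 1 became 0 in DESeq2 (349 of 7931 genes), 3 without the filter (642 of 26492) and 2 without the 6 mice (706 of 8706). In chow trained mice 3 became 0 without the 6 mice (243 of 8706 genes). The depot difference in the HFD effect had 1 call in sedentary mice, which became 0 without the 6 mice (3 of 8706 genes). In trained mice its 0 calls became 1 without the filter (336 of 26492 genes). For scWAT against triceps 3 calls became 7 on total counts, where 89.5% of all genes were called. Of the 6 genes most like the members, 3 stayed by Spearman correlation in scWAT and 3 in vWAT.

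With 1 library or mouse left out, the calls on HFD ranged from 1 to 3 in sedentary scWAT and from 0 to 1 in trained scWAT. The depot calls ranged from 4 to 6 for the mean of the groups and from 0 to 2 in HFD trained mice. The depot difference in the HFD effect ranged from 0 to 1 call in each activity. Several values near 0 changed sign. Pdgfra ranged from -0.029 to 0.42 for HFD in trained scWAT, from -0.18 to 0.11 for HFD in trained vWAT and from -0.27 to 0.0079 for running on HFD in vWAT. Between depots Pdgfra ranged from -0.039 to 0.083 for the mean, from -0.060 to 0.11 in HFD trained mice and from -0.14 to 0.22 in chow sedentary mice. Ly6a ranged from -0.10 to 0.12 for running on HFD in scWAT, and Cd34 from -0.024 to 0.18 for HFD in trained vWAT. Dpp4 ranged from -1.31 to 0.40 between depots in chow sedentary mice and from -1.13 to 0.58 for the depot difference in the HFD effect in sedentary mice. Mfap5 ranged from -0.034 to 0.66 for that difference in trained mice.

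The called value that changed sign was Cd34 in scWAT against triceps, at 0.54 on total counts. Also on total counts, Pdgfra was 0.72 in scWAT and 0.77 in vWAT against triceps, and Cd55 was 0.99 in vWAT against triceps. Ly6a for running on HFD in scWAT was -0.037 on total counts, -0.010 in DESeq2 and -0.020 in the block of 11. Ly6a for HFD in vWAT was 0.14 on total counts, 0.058 with the library block and 0.11 in the block of 12 in sedentary mice, and 0.077 on total counts and 0.025 with the library block in trained mice. Pdgfra for HFD in trained vWAT was 0.14 on total counts, 0.20 with the library block and 0.18 in the block of 12, and for running on HFD it was 0.059 in the block of 12. Pdgfra between depots was -0.058 (mean), -0.045 (HFD trained) and -0.018 (chow sedentary) on total counts, -0.0050 without the filter in chow sedentary mice, and -0.041 in chow sedentary and 0.054 in chow trained mice without the 6 mice. Without them Cd55 between depots was -0.060 for the mean and -0.063 in chow sedentary mice. For the depot difference in the HFD effect without the 6 mice, Dpp4 was 4.57 in sedentary mice and Pdgfra -0.026 in trained mice. The Dpp4 value rests on 2 chow sedentary scWAT libraries with 0 counts, so its size is not well determined.

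Replicate numbers are shared between groups but name different mice. Deviations of same-numbered libraries correlated at -0.19 to 0.56 (median 0.13) in scWAT and -0.20 to 0.28 (median 0.03) in vWAT, over 30 pairs each. With the replicate number as a block, the members called on HFD in scWAT stayed at 2 in sedentary and 1 in trained mice. Of all 7069 tested genes, 646 and 552 were then called, against 449 and 365 without the block. In vWAT the members called stayed at 0, where 501 of 6990 genes were called in sedentary and 164 in trained mice. In triceps they also stayed at 0, where 1 of 4410 genes was called in sedentary and 0 in trained mice. Between tissues the mouse was the block. With no replicate block the depot calls stayed at 4 for the mean (2163 of 7931 genes called) and 1 in HFD trained mice (408 genes). They also stayed at 4 in chow sedentary (915 genes) and 3 in chow trained mice (838 genes). Dpp4 between depots in chow sedentary mice was 0.022 with no replicate block, against -0.20 with the mouse as block.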
